A study of Homo sapiens with 6 samples.

Results

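PDGFA, PDGFB, PDGFC and PDGFD encode the ligands of the platelet-derived growth factor (PDGF) family, VEGFA, VEGFB, VEGFC and PGF encode ligands of the vascular endothelial growth factor (VEGF) family, and HGF and MET encode hepatocyte growth factor and its receptor. These 10 genes, of 27009 in the deposited table, were taken by gene name, and each had 1 row. They were selected on earlier results of this same comparison, in which the log2 fold changes of PDGFB, VEGFA and HGF were already known. The differences between the groups are therefore a description of these genes and no test of them.

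RNA sequencing had been carried out on Hep3B, a human hepatocellular carcinoma cell line, in 6 libraries. All 6 came from cells without their endogenous PD-L1 gene, and the cells carried either the empty vector (3 libraries) or nPD-L1 (3 libraries), a mutated PD-L1 held in the nucleus, to compare gene expression with and without nuclear PD-L1. The nPD-L1 sequence had been cloned into a lentiviral vector with a CMV promoter and a puromycin resistance gene and delivered as a stable transgene. It was thus placed under that promoter and not under that of the PD-L1 gene itself. Its RNA level was not measured separately here. The labels do not say whether the libraries of a group came from separate cultures or how many clones were used, so p-values measure only the spread between these libraries, which may be technical. In bulk RNA, fewer cells that express a gene and less RNA per cell cannot be told apart.

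Each value is the number of reads counted on a gene divided by a size factor for its library, called scaled reads here. The scaled reads summed to 18082164 to 19682128 per library. The reads behind them, recovered from the value of 1 read, summed to 17427519 to 22253295. In vector replicate 1 and nPD-L1 replicate 2 the value of 1 read lay near 1, and their reads were not accepted as recovered. CD274, the gene of PD-L1 and the targeted gene, had 28.3, 38.4 and 47.8 scaled reads in vector replicates 1, 2 and 3, against 16.8, 19.2 and 30.9 in replicates 1, 2 and 3 labelled nPD-L1. It was thus not higher in the nPD-L1-labelled libraries, the groups overlapped, and its log2 fold change of −0.76 (SE 0.34) was not called (limma adjusted p = 0.338). By the paper, nPD-L1 is the PD-L1 sequence with a short mutated stretch, and whether its reads were counted on this gene is not stated. The RNA values of CD274 thus do not bear out these labels, and the reason was not tested. For protein, the paper reports PD-L1 in the nucleus of such stable Hep3B cells, by immunoblot and cellular fractionation. Of 10 hepatocyte markers 9 had a row, and AFP had none. ALB, APOA1, APOB, TTR and TF, which define hepatocytes, stayed at 3 scaled reads or fewer in every library. FGB (962 to 1540) and APOH (140 to 308) were detected. The line is named Hep3B from the labels, and its identity was not tested. The summed level of the 9 markers was 1151 to 1870 in the vector libraries, against 1204 to 1355 in the nPD-L1-labelled ones. Vector replicate 2 departed most by gene length: with the genes split by length into 3 equal groups, the shortest were 0.14 above their group mean and the longest lay at −0.11 (medians, log2). Vector replicate 3 departed nearly as far the other way (−0.10 and 0.09). Spearman correlations of the deviations with length were −0.32 in vector replicate 2, 0.29 in vector replicate 3 and 0.20 in nPD-L1 replicate 3. The members are also given without vector replicate 2 and without vector replicate 3.

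PDGF ligands are secreted dimers of A, B, C or D chains that bind the receptor tyrosine kinases PDGFRA and PDGFRB on mesenchymal cells such as fibroblasts, pericytes and hepatic stellate cells. VEGF ligands bind the receptors FLT1, KDR and FLT4 and the co-receptors NRP1 and NRP2, and act chiefly on blood and lymphatic endothelium. HGF is usually made by mesenchymal cells and acts on hepatocytes and other epithelial cells through MET. In the liver these factors carry signals between parenchymal cells, stellate cells and endothelium, and tumors of the liver often make several of them.

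To show the sequence in front of members that differed between the groups, the 250 bases before the transcription start are given for PDGFA, which was higher, and for VEGFC and HGF, which were lower in the nPD-L1-labelled libraries. They are from RefSeq on GRCh38.p14, where 7 of the 10 members matched, and run 5′ to 3′ on the strand of the gene (the minus strand for all 3). PDGFB and VEGFA, which also differed, and PDGFC had no entry, so their windows could not be read. PDGFA has 4 entries, and the one nearest to the edge of the deposited gene is shown. The RefSeq start of HGF lies 391 bases inside the deposited gene, so its whole window falls within that gene. The start of PDGFA lies 70 bases inside, so part of its window does too. Capitals mark matches on either strand to GGGCGG, the GC box bound by SP1, or to CAGAC, a SMAD-binding sequence.
PDGFA, chr7:520227-520476: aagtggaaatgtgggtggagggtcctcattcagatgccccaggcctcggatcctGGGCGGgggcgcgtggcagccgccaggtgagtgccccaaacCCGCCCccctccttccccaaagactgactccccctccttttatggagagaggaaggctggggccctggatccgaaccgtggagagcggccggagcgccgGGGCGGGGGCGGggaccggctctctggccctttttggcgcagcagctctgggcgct
VEGFC, chr4:176792923-176793172: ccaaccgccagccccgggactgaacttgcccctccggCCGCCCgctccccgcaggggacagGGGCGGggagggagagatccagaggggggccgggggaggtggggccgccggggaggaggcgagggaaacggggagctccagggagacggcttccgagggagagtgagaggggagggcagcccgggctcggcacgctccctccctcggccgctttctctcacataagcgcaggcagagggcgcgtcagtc
HGF, chr7:81770048-81770297: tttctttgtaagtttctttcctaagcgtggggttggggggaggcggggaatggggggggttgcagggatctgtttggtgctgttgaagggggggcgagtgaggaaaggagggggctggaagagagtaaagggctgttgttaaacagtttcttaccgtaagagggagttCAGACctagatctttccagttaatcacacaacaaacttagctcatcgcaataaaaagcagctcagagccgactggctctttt

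The PDGFA window was 68.8% GC and held 4 GC boxes, which begin 196, 155, 56 and 50 bases before the start, the last pair end to end. The VEGFC window was 74% GC and held 2 GC boxes, 213 and 189 bases before the start. The HGF window was 50% GC, against a median of 58% over 35116 promoters, and held no GC box and 1 CAGAC, 82 bases before the start. A GC box occurred in 42.6% of these promoters and CAGAC in 38.0%. None of the 3 windows held TGANTCA (the AP-1 site, 6.57% of promoters), ACGTG (the core of the hypoxia-inducible factor site, 18.5%) or TATAAA (the TATA box, 10.7%), each searched on both strands. These matches describe letters in a window and name no binding site.

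PDGFB, PDGFA and VEGFA were higher and VEGFC and HGF lower in the nPD-L1-labelled libraries, while PDGFC, PDGFD, VEGFB, PGF and MET were not called. By limma on log2(value + 1), at an adjusted p under 0.05, 3 of the 10 members were called higher, beside 4.04% of all genes tested (609 of 15076, those with at least 10 scaled reads in at least 3 libraries), and 2 were called lower, beside 0.922% (139 of 15076). The same 5 genes were those whose groups did not overlap, 3 higher beside 12.0% of all genes and 2 lower beside 8.54%. Because the members were chosen with these results known, nothing is read from these shares. The median log2 fold change of the members was 0.08, and that of all genes tested was −0.02.

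Among the PDGF ligands, the 2 classical chains rose in the nPD-L1-labelled libraries, and the 2 chains that carry a CUB domain did not pass the test. PDGFB, the B chain, which binds both PDGF receptors, had 29.3, 27.1 and 48.8 scaled reads in vector replicates 1, 2 and 3 and 1595, 1754 and 1529 in nPD-L1 replicates 1, 2 and 3. The groups were far apart, with the highest vector library 31.3-fold below the lowest nPD-L1-labelled library and the extreme libraries 64.7-fold apart. The vector values rested on 29, 24 and 47 reads, of which the 29 of vector replicate 1 were not accepted as recovered. The coefficient of variation of the vector values was 34.1%, against 7.11% in the other group. The log2 fold change was 5.54 (SE 0.21, n = 3 and 3), a 46.4-fold ratio of the means, and it was the highest of the 15076 genes tested. Without vector replicate 2 it was 5.39. PDGFB (ENSG00000100311) lies on the minus strand of chromosome 22 of GRCh38 from 39223359 to 39244751.

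PDGFA, the A chain, which signals through PDGFRA, had 48.4, 68.9 and 56.1 scaled reads in the vector libraries, against 325, 293 and 261 in the nPD-L1-labelled ones. All 3 nPD-L1-labelled libraries were above all 3 vector libraries, by 3.79-fold at the nearest and 6.71-fold at the farthest. PDGFA rose by a log2 fold change of 2.33 (SE 0.19), a 5.07-fold ratio of the means and rank 89 from the highest. PDGFA (ENSG00000197461) lies on the minus strand of chromosome 7 from 497258 to 520296.

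PDGFC, whose product is secreted as a latent dimer and activated by cleavage, had 146, 166 and 161 scaled reads in the vector libraries, against 119, 130 and 160 in the nPD-L1-labelled ones. The groups overlapped through nPD-L1 replicate 3, and the log2 fold change of −0.22 (SE 0.17) was not called. PDGFD, the other latent ligand, which binds PDGFRB, had 303, 413 and 314 scaled reads against 281, 427 and 399. Here each group held both low and high libraries, and the log2 fold change of 0.09 (SE 0.18) was not called and changed sign without nPD-L1 replicate 2 (−0.022). The difference within the PDGF family therefore lay in PDGFA and PDGFB, as the plot of scaled reads by library shows.

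**Figure D1:**
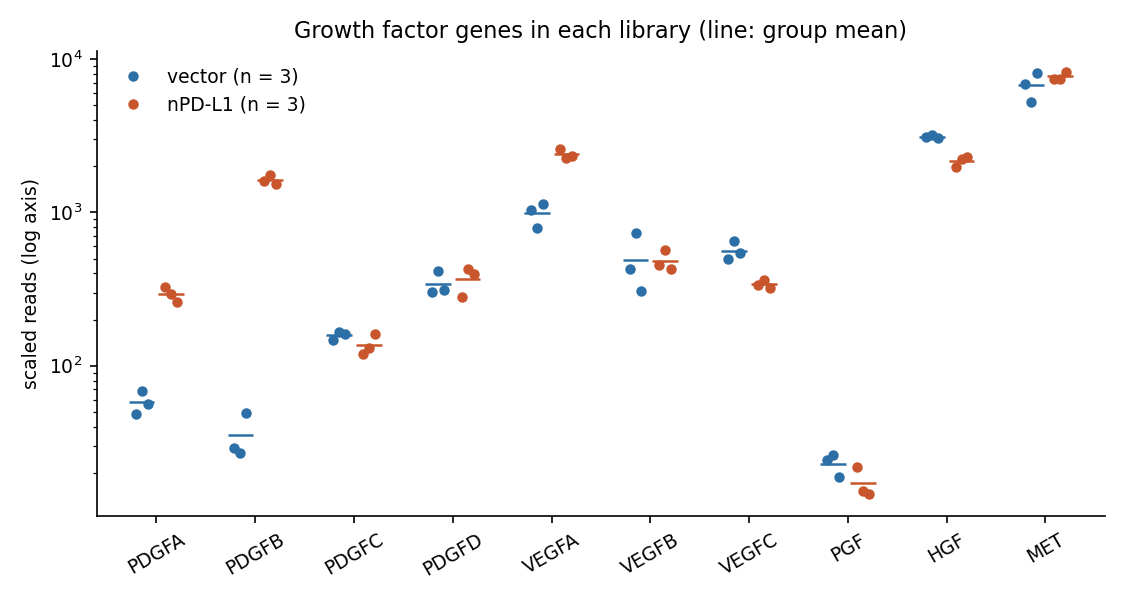
Scaled reads (log axis) of the 10 genes in each of the 3 vector libraries (blue) and the 3 nPD-L1-labelled libraries (orange), with lines at the group means. The groups are apart for PDGFA, PDGFB and VEGFA, which were higher in the nPD-L1-labelled libraries, and for VEGFC and HGF, which were lower, and they overlap for the other 5 genes.

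Of the VEGF ligands among the members, 1 rose, 1 fell and 2 were not called. VEGFA, the main inducer of blood vessel growth and a usual target of hypoxia-inducible factors, had 1044, 787 and 1134 scaled reads in the vector libraries, against 2587, 2258 and 2340 in the nPD-L1-labelled ones. Vector replicate 2 was the lowest of the 6, and even the highest vector library was 1.99-fold below the lowest nPD-L1-labelled library. Its log2 fold change was 1.29 (SE 0.14), a 2.42-fold ratio of the means, and 1.14 without vector replicate 2. VEGFA (ENSG00000112715) lies on the plus strand of chromosome 6 from 43770184 to 43786487.

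VEGFC, the ligand of FLT4 that drives lymphatic vessel growth, had 494, 648 and 547 scaled reads in the vector libraries, against 335, 364 and 323 in the nPD-L1-labelled ones. Its groups did not overlap, and the mean was 0.606 of that in the vector libraries. VEGFC fell by 0.71 on the log2 scale (SE 0.13). VEGFC was no longer called without nPD-L1 replicate 1 (−0.70) or nPD-L1 replicate 3 (−0.68), and without vector replicate 2, its highest library, it stayed called at −0.61. VEGFC (ENSG00000150630) lies on the minus strand of chromosome 4 from 176683538 to 176792727, and the antisense gene AC093801.1, which overlaps it, reached at most 2.02 scaled reads.

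VEGFB, a ligand of FLT1, had 426, 731 and 309 scaled reads in the vector libraries, against 451, 572 and 426 in the nPD-L1-labelled ones. The vector libraries spread most widely of all members here, with a coefficient of variation of 44.6%, and enclosed the other group. The log2 fold change of 0.07 (SE 0.26) was not called and lay between −0.22 without vector replicate 3 and 0.40 without vector replicate 2. VEGFB is the shortest member (1545 bases) and on the log2 scale lay 0.67 above its group mean in vector replicate 2, the library in which short genes were high, and at −0.57 in vector replicate 3. The part of gene length in this spread was not tested. PGF, placental growth factor, another ligand of FLT1, was the lowest member, with 24.2, 26.0 and 18.7 scaled reads against 21.8, 15.2 and 14.5. At 15 to 26 reads per library its groups overlapped, and the log2 fold change of −0.41 (SE 0.34) was not called.

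HGF was lower in the nPD-L1-labelled libraries and its receptor MET was not called. HGF had 3119, 3195 and 3072 scaled reads in the vector libraries (coefficient of variation 1.98%) and 1968, 2236 and 2310 in the nPD-L1-labelled libraries. The groups were apart, with every nPD-L1-labelled library below every vector library and a ratio of the means of 0.694. The log2 fold change was −0.53 (SE 0.098), and it was no longer called without vector replicate 1 (−0.53) or nPD-L1 replicate 1 (−0.46). HGF (ENSG00000019991) lies on the minus strand of chromosome 7 from 81699008 to 81770438.

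MET, the receptor tyrosine kinase for HGF, was the most abundant member, with 6891, 5245 and 8130 scaled reads in the vector libraries, against 7467, 7463 and 8259 in the nPD-L1-labelled ones. The range of the vector libraries held 2 of the 3 nPD-L1-labelled libraries, and vector replicate 2 was the lowest of the 6. The log2 fold change was 0.22 (SE 0.15), and 0.04 without vector replicate 2. Both the ligand and its receptor were thus expressed in every library of this line.

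PDGFA, PDGFB and VEGFA were called under all 18 alternatives, VEGFC under 14 and HGF under 13, and none of the other 5 members was called under any. Without vector replicate 2 the log2 fold changes not given above were 2.46 for PDGFA, −0.18 for PDGFC, 0.24 for PDGFD, −0.32 for PGF and −0.51 for HGF. Without vector replicate 3 they were 2.32 for PDGFA, 5.80 for PDGFB, −0.20 for PDGFC, 0.04 for PDGFD and 1.40 for VEGFA. For VEGFC, PGF, HGF and MET they were then −0.73, −0.54, −0.54 and 0.36.

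**Figure D2:**
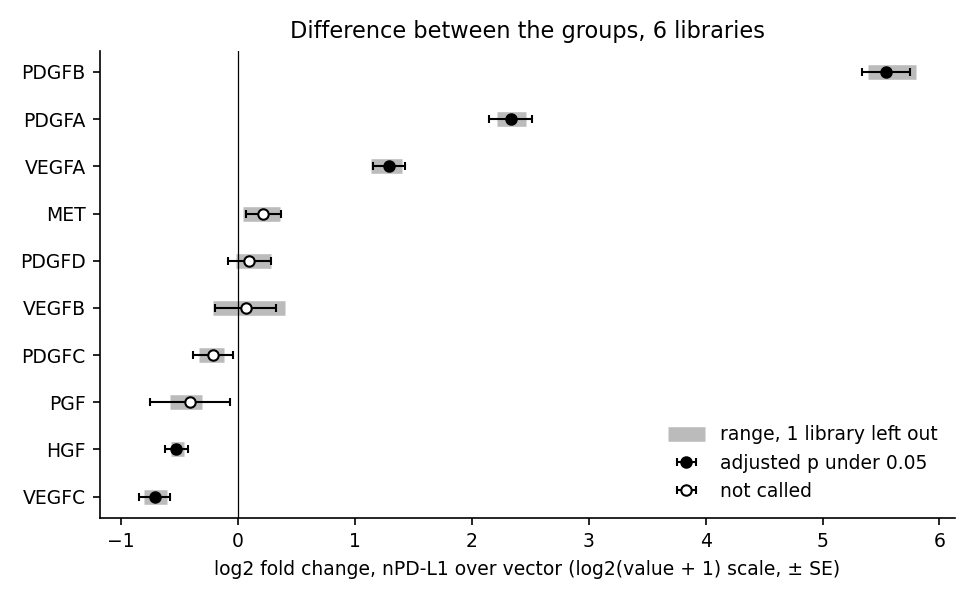
Log2 fold change of each member, nPD-L1-labelled libraries over vector libraries, on the log2(value + 1) scale with its SE from limma (n = 3 and 3), beside the range found when 1 library at a time was left out (grey). Filled points were called at an adjusted p under 0.05. PDGFB (5.54), PDGFA (2.33) and VEGFA (1.29) stand to the right of 0, HGF (−0.53) and VEGFC (−0.71) to the left, and the range for VEGFB (−0.22 to 0.40) and for PDGFD (−0.022 to 0.28) crosses 0.

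Levels were compared between genes as scaled reads per kb of the deposited gene length, which for all 10 members equals the summed length of every exon in GENCODE v29. In the vector libraries MET was first at 960 ± 206 (SD, n = 3), followed by HGF at 319 ± 6.32, VEGFB at 316 ± 141 and VEGFC at 233 ± 32.5. The ranges of HGF and VEGFB overlapped, as did those of VEGFB and VEGFC. Next came PDGFD (80.5 ± 14.3) and VEGFA (68.5 ± 12.5), which overlapped, then PDGFC (28.2 ± 1.83), PDGFA (13.9 ± 2.49), PDGFB (9.33 ± 3.18) and PGF (3.85 ± 0.636), of which PDGFA and PDGFB overlapped. PDGFB thus had place 9 of the 10 members there, at the 14.2 percentile of all genes tested.

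In the nPD-L1-labelled libraries, MET was again first at 1098 ± 65.2 scaled reads per kb. PDGFB came second at 432 ± 30.7, at the 86.5 percentile of all genes tested, and its range did not reach that of VEGFB (313 ± 50.6). HGF (221 ± 18.3), VEGFA (166 ± 11.9) and VEGFC (141 ± 8.69) followed, each range apart from the next. PDGFD (86.5 ± 18.2) overlapped PDGFA (70.7 ± 7.68), and PDGFC (24.4 ± 3.77) and PGF (2.88 ± 0.683) came last. The place of PDGFB in this order moved from 9 to 2, and no other member moved by more than 2 places.

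Per kb, PDGFD made up 60.8% ± 3.67 of the PDGF ligand signal in the vector libraries and PDGFB 7.18% ± 2.68 (SD, n = 3). In the nPD-L1-labelled libraries these shares were 14.04% ± 2.52 and 70.4% ± 1.63. The share of PDGFA was 10.5% ± 0.514 in the vector libraries, against 11.5% ± 1.51 in the nPD-L1-labelled ones, although its own level was 5.07-fold higher, since the sum of the 4 ligands went from 132 ± 17.1 to 614 ± 40.2. The ratio of PDGFB to PDGFA per kb was 0.667, 0.434 and 0.961 in vector replicates 1, 2 and 3 and 5.41, 6.60 and 6.46 in nPD-L1 replicates 1, 2 and 3. PDGFB was below PDGFA in each vector library and above it in each nPD-L1-labelled library.

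Within the 4 VEGF ligands among the members, VEGFA made up 11.8% ± 4.46 per kb in the vector libraries, against 26.8% ± 3.34 in the nPD-L1-labelled ones. VEGFC made up 38.2% ± 5.67 and 22.7% ± 0.571. VEGFD, at 14.9 ± 4.44 and 15.7 ± 2.14 scaled reads per kb in these groups, is not a member and is left out. VEGFB made up 49.4% ± 9.88 and 50.1% ± 3.85, with overlapping ranges. The sum of the 4 VEGF ligands was 621 ± 157 in the vector libraries, against 623 ± 53.5 in the nPD-L1-labelled ones, with overlapping ranges. The ratio of VEGFA to VEGFC was 0.355, 0.204 and 0.348 in the vector libraries, against 1.29, 1.04 and 1.21 in the nPD-L1-labelled ones, so it crossed 1 between the groups.

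These levels depend on the length used. The deposited length of VEGFA, 14431 bases, is 3.83-fold that of the exons of its GENCODE v29 basic transcripts (3768 bases), the greatest such ratio among the members, and the next were PGF (2.78) and PDGFA (1.75). With the basic lengths, VEGFA had place 5 of the 10 members in the vector libraries and place 2 in the nPD-L1-labelled ones, where PDGFB had place 3 (10 in the vector libraries), and the share of VEGFA among VEGF ligands was 30.2% ± 9.40 and 54.9% ± 4.25. The ratio of VEGFA to VEGFC was then 0.665 to 1.16 in the vector libraries and 3.40 to 4.23 in the others, and the sums of the 4 VEGF ligands, 798 to 1065 and 1093 to 1198, no longer overlapped. The share of PDGFB among PDGF ligands moved less, to 6.41% ± 2.38 and 64.9% ± 1.18. Fold changes between the groups do not depend on the length.

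**Figure D3:**
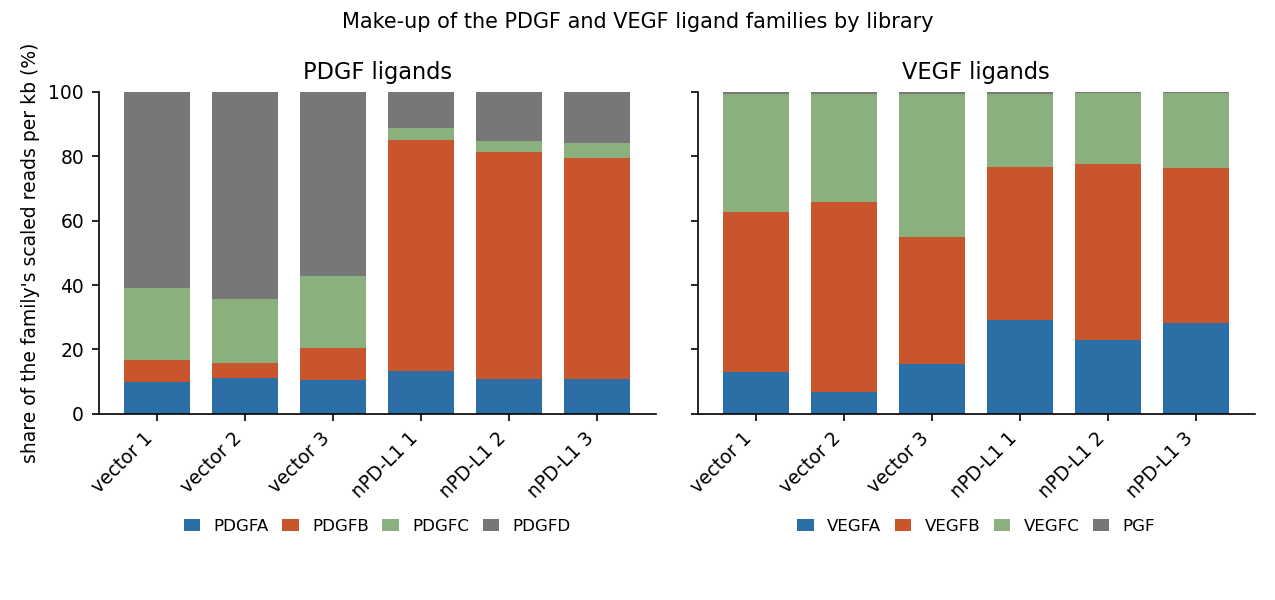
Share of each ligand in the summed scaled reads per kb (deposited gene lengths) of the PDGF family (left) and the VEGF family (right). Stacked bars are for the 3 vector libraries and the 3 nPD-L1-labelled libraries, and VEGFD is not included. PDGFB fills 68.7% to 71.9% of the PDGF bars in the nPD-L1-labelled libraries and 4.79% to 10.1% in the vector libraries, and VEGFA fills 23.0% to 29.2% and 6.82% to 15.5% of the VEGF bars.

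The receptors for the PDGF ligands were barely detected. PDGFRA had 0 to 9.10 and PDGFRB 0 to 8.31 scaled reads over the 6 libraries, and neither reached the minimum for the test. PDGFRL, a receptor-like protein without a kinase domain, had 165 to 294 scaled reads (log2 fold change −0.04, SE 0.20) and was not called. Of the VEGF receptors, FLT4, the receptor of VEGFC, had 204 to 250 scaled reads (log2 fold change 0.07, SE 0.14) and was not called. FLT1 and KDR had no row in the deposited table. MST1R, a receptor related to MET, had 75.7 to 157 scaled reads (log2 fold change 0.06, SE 0.28) and was not called.

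The neuropilins NRP1 and NRP2, co-receptors of the VEGF ligands, were called differently, and the difference between them was not tested. NRP2 had 669, 460 and 819 scaled reads in the vector libraries, against 1461, 1252 and 1300 in the nPD-L1-labelled ones, and it rose by a log2 fold change of 1.08 (SE 0.18, limma adjusted p = 0.0052). It was no longer called without nPD-L1 replicate 1 (1.01) or by edgeR on the 4 libraries whose reads were accepted as recovered (1.12). NRP1 had 5865 to 7098 scaled reads in all 6 libraries (log2 fold change 0.05, SE 0.11) and was not called. Per kb NRP1 was at 573 ± 56.4 and 593 ± 27.4 in the vector libraries and the nPD-L1-labelled libraries, and NRP2 at 46.7 ± 12.99 and 96.3 ± 7.85. In all, 1 of the 5 receptors and co-receptors tested rose, beside 4.04% of all genes tested, and none fell, beside 0.922%.

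The remaining pathway genes were taken from lists by role. Of 14 genes for processing and activation of the ligands 7 could be tested, of which 2 rose, beside 4.04% of all genes tested, and none fell, beside 0.922%. One of them was FURIN, a proprotein convertase that cleaves PDGF and VEGFC precursors, with 1273, 1457 and 1286 scaled reads in the vector libraries, against 5301, 5295 and 4864 in the nPD-L1-labelled ones (log2 fold change 1.95, SE 0.099, limma adjusted p = 1.2e-06). The HGF activators HGFAC, HPN and ST14 had at most 10.1 scaled reads in any library, and PLAU, a protease also able to cleave HGF, had 2902 to 3843. Neither of the 2 related ligands was called, VEGFD with 24.9 to 42.9 and MST1, the ligand of MST1R, with 15.1 to 17.7 scaled reads.

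Of 28 genes that relay signals from receptor tyrosine kinases, from GRB2 to MAPK3, all were tested, 1 rose, beside 4.04% of all genes tested, and none fell, beside 0.922%. The one that rose was SOS2, a RAS exchange factor, with 440, 492 and 478 scaled reads in the vector libraries, against 762, 690 and 846 in the nPD-L1-labelled ones (log2 fold change 0.70, SE 0.12, limma adjusted p = 0.00503). SOS2 was no longer called by limma (0.73) or edgeR (0.74) on the 4 libraries with accepted reads. The median of this list was 0.05 on the log2 scale. The lists were chosen with earlier results of these data known, and nothing particular to a list is read from these counts.

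Among 20 other secreted regulators of blood vessels 15 were tested, 3 rose, beside 4.04% of all genes tested, and none fell, beside 0.922%. ANGPTL4, an angiopoietin-like protein that also inhibits lipoprotein lipase, had 359, 377 and 424 scaled reads in the vector libraries, against 4322, 2966 and 3049 in the nPD-L1-labelled ones (log2 fold change 3.13, SE 0.15, limma adjusted p = 7.3e-07). EFNA1, an ephrin ligand, had 737, 936 and 647 against 1920, 2502 and 2211 (1.52, SE 0.15, limma adjusted p = 0.000126). CCN2, connective tissue growth factor, had 1270, 1412 and 513 against 4304, 4302 and 4519 (2.17, SE 0.34, limma adjusted p = 0.00884), and was no longer called without vector replicate 2 (2.44), with the replicate block (2.17), without the filter on low values (2.17) or by limma on 4 libraries (2.37). Vector replicate 3 was the low one for CCN2. The median of the 15 genes was −0.04.

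VEGFA is one of the usual targets of hypoxia-inducible factors, so other genes of that response were set beside it. Of 18 tested, 5 rose, beside 4.04% of all genes tested, 1 fell, beside 0.922%, and 12 were not called, with a median of 0.10 against −0.02 over all genes. PFKFB3, a regulator of glycolysis, rose by 2.08 (SE 0.11, limma adjusted p = 2.3e-06), EGLN3, an oxygen sensor, by 0.89 (SE 0.16), NDRG1 by 0.87 (SE 0.11), KDM3A, a histone demethylase, by 0.60 (SE 0.10) and ARNT, the partner subunit of these factors, by 0.43 (SE 0.11), with limma adjusted p-values of 0.0437 or less. CITED2, which competes with these factors for a coactivator, fell by 2.59 (SE 0.24, limma adjusted p = 8.8e-05). EGLN3 was no longer called without vector replicate 1 (0.81), and ARNT without vector replicate 1 (0.46) or any 1 of the 3 nPD-L1-labelled libraries (0.41 to 0.44), with upper-quartile scaling or without the filter on low values. On the 4 libraries with accepted reads, EGLN3, KDM3A and ARNT were not called by limma, edgeR or DESeq2, and NDRG1 was not called by limma or edgeR. Of those not called, PFKFB4 (0.64, SE 0.16), EPAS1 (0.43, SE 0.18), EGLN1 (0.26, SE 0.09) and SLC2A1 (0.18, SE 0.09) had log2 fold changes above 0 and groups that did not overlap. Of all genes tested, 12.0% were higher and 8.54% lower without overlap, so nothing is read from these genes. ANKRD37 (−0.64, SE 0.33), P4HA1 (−0.05), VHL (−0.05) and HIF1A (0.006), also not called, had overlapping groups. PGK1, LDHA, ENO1 and BNIP3, usual targets in glycolysis and mitophagy, had log2 fold changes of −0.05, 0.00, −0.14 and −0.16 with overlapping groups, and CA9 stayed at 5.20 scaled reads or fewer.

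**Figure D4:**
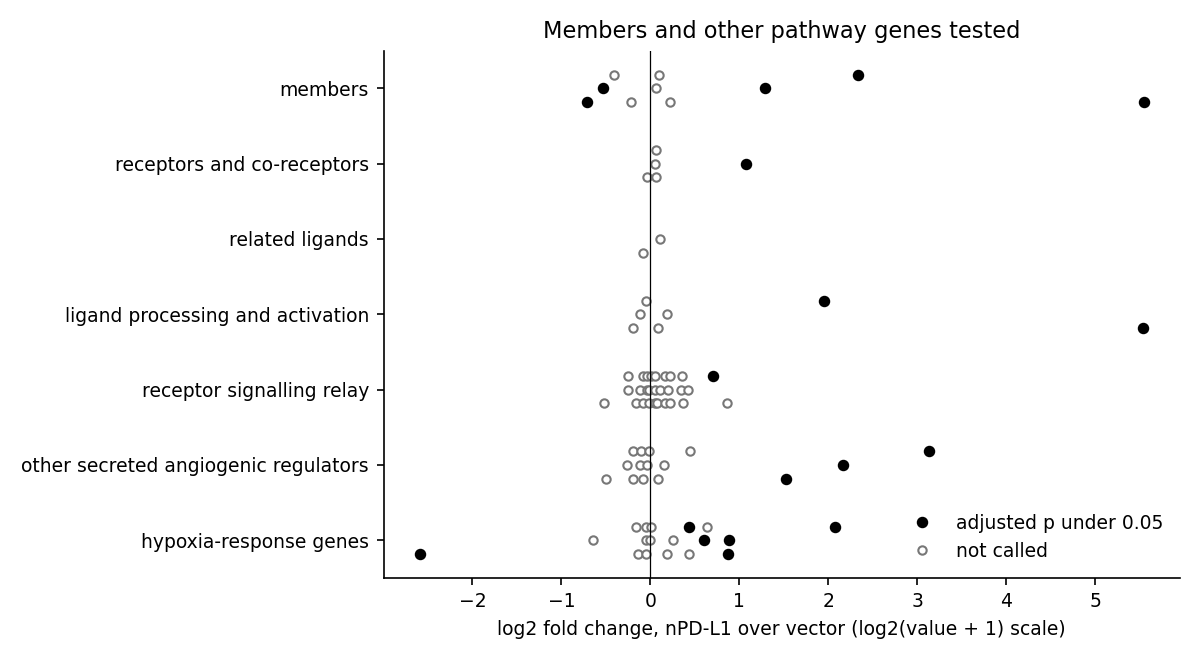
Log2 fold change (nPD-L1-labelled libraries over vector libraries, log2(value + 1) scale) of the 10 members and of the genes tested in each list, 1 point per gene, with genes called at an adjusted p under 0.05 filled. Most points lie near 0, as in the relay list with 27 of 28 not called, and called genes lie to the right except CITED2 and, among the members, VEGFC and HGF.

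Endothelial, mesenchymal and blood cells make these ligands too, and their markers were read beside them. Of 8 endothelial markers 5 had a row, and PECAM1, VWF, TEK and ROBO4 stayed at 7.56 scaled reads or fewer. ESAM had 46.3 to 81.8, and the summed level was 47.4 to 88.8 in the vector libraries, against 80.9 to 89.1 in the nPD-L1-labelled ones. Of 6 leukocyte markers 3 had a row, and their sum was 4.04 to 18.1 and 4.82 to 17.6. Of 8 fibroblast and stellate markers 6 had a row, with sums of 272 to 337 and 691 to 740. This difference lay mostly in 1 gene, COL1A1, a collagen chain (82.8, 63.2 and 49.9 in vector replicates 1, 2 and 3 against 465, 445 and 487). LUM (99.9 to 182), ACTA2 (51.1 to 84.8) and RGS5 (27.3 to 40.5) were detected in every library and were not called. DCN was at 5.04 or fewer and PDGFRB as above. The part of other cells in the PDGFA and PDGFB values was not tested. Of the hepatocyte markers, HNF4A rose (19.2, 11.3 and 6.24 scaled reads against 51.3, 51.6 and 33.8), and was no longer called when any 1 nPD-L1-labelled library was left out (1.81 to 2.11) or on 4 libraries by limma, edgeR or DESeq2 (2.18 to 2.29).

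The genes most like PDGFB over the 6 libraries were sought by the root mean square difference between log2(value + 1) profiles, each centred on its mean. Of the nearest 3, KRT17, a keratin, was at a distance of 0.51 and LEFTY2, a secreted inhibitor of NODAL signaling, at 0.52. The values of KRT17 were 0 in each vector library and 47.9, 29.3 and 20.3 scaled reads in nPD-L1 replicates 1, 2 and 3, and those of LEFTY2 were 0 and 24.4, 24.3 and 24.1. A search for profiles near that of PDGFB returns genes with its direction, so nothing is read from their direction. Both were at far lower levels than PDGFB and passed the filter only through the nPD-L1-labelled libraries. With a group at 0 their distance depends on the pseudocount.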

How the data were processed

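RNA sequencing reads of 6 Hep3B libraries (total RNA, NEBNext Ultra RNA kit) had been processed by a company; the submitters' notes name CASAVA, HISAT2 (version 2.0.5) and hg38, and the counter and its strand setting are not given in the sources used here. The authors deposited a signal per gene and library, reads divided by a size factor, under a heading that calls it raw. In all 6 libraries 100% of the nonzero values were whole multiples of 1 step (tolerance 0.05), and this recovered reads in 4. In the other 2 the step lay near 1, and the edgeR fit on reads of all 6 is an addition made after seeing the data. The levels with GENCODE v29 basic exon lengths are also such an addition. The limma fit on all 6 libraries was planned. The authors' deposited fold changes and p-values were not used.

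Values were analyzed as log2(value + 1) by limma (version 3.58.1, R 4.3.3; trend and robust moderation, two-sided), in the 15076 genes with at least 10 in 3 or more libraries, with Benjamini-Hochberg adjustment over all of them. This scale understates changes of low genes. Recovered reads were also fitted by edgeR (version 4.0.16) and DESeq2 (version 1.42.0), beside other scalings, filters, pseudocounts, a replicate block and each library left out.

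The members and gene lists were chosen with earlier results of these data known. The genes named were the members, CD274, list genes called, receptors, FURIN and the 3 genes nearest to PDGFB; genes named beyond this rule were chosen after their values were seen. Results for 1 gene that the rule would name are not reported here.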

Additional observations from a re-analysis of the deposited data

How the results depend on the processing

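PDGFA, PDGFB and VEGFA kept their direction and their call under all 18 alternatives, with log2 fold changes of 2.17 to 2.46, 5.21 to 5.80 and 1.14 to 1.40. The members called lower were 0 by limma and by edgeR on the 4 libraries with recovered reads and 1 by DESeq2 on them, 0 when a log2 fold change of at least 1 was also asked, and 0 to 2 with 1 library left out, against 2. In those fits of 4 libraries HGF was −0.55, −0.54 and −0.55. PDGFD, not called, changed sign to −0.022 without nPD-L1 replicate 2 (range with 1 library left out, −0.022 to 0.28) and to −0.11, −0.088 and −0.094 on 4 libraries (limma, edgeR, DESeq2). VEGFB did so at −0.22 without vector replicate 3 and −0.062 without nPD-L1 replicate 2 (range −0.22 to 0.40), −0.11, −0.23 and −0.24 on 4 libraries, and −0.0017 by edgeR on 6. Genes called higher and lower numbered 609 and 139, and 229 and 52 (limma), 207 and 46 (edgeR) and 311 and 83 (DESeq2) on 4 libraries, 306 and 68 with the fold threshold, and 331 to 791 and 76 to 242 with 1 library left out. Other pathway genes called higher numbered 12, 6 by limma and by edgeR on 4 libraries, 7 with the fold threshold and 10 to 13 with 1 library left out, and those lower 1, 2 without a filter on low values and 1 to 2 with 1 library left out. Fits on 4 libraries hold fewer samples, and the cause of the other changes was not tested.

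With the replicate number as a replicate block, 927 genes were called higher and 258 lower, and the pathway genes called lower were 3; the calls of the members did not change, at 3 higher and 2 lower, and CCN2 lost its call. Deviations of same-numbered libraries correlated at −0.013, 0.229 and 0.131 across genes. These values do not establish a pairing: vector replicate 1 correlated best with nPD-L1 replicate 3 (0.0738), and the labels name nothing that a number shares. Reads on genes, 17427519 or more per library, set the counting error, which is greatest for PGF (15 to 26 reads) and for PDGFB in the vector libraries (24 to 47).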
